A study of Arabidopsis thaliana with 39 samples.

Results

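The ZED1-related kinase genes examined here are 9 protein-coding genes, AT3G57640, AT3G57700, AT3G57710 (*RKS1*), AT3G57720, AT3G57730, AT3G57740, AT3G57750 (*ZED1*), AT3G57760 and AT3G57770, out of 37184 genes in each deposited count file. They lie close together on chromosome 3 and were chosen by their small RNA reads in *rsr1-2* and *cstf64-2* against the Col-0 plants of the same set, where AT3G57720 and AT3G57710 stood out, with the remaining genes taken in as their relatives at the locus. The values of those 2 contrasts are therefore given below as a description, and where the call rule used for all genes is quoted for them, nothing is read from it. Small RNA was sequenced from whole *Arabidopsis thaliana* plants in 39 libraries, 3 biological replicates for each of 13 groups, in 3 sets that each had their own wild type, Col-0. In the first set, seedlings were *lsm1a lsm1b* (both LSM1 subunits of the cytoplasmic decapping activator), *ncb-4* (coilin), *upf1-5* and *upf3-1* (nonsense-mediated decay), with Col-0 (1). In the second, they were *ahg2-1* (the poly(A) ribonuclease PARN), *ccr4a* (a deadenylase), *pab2 pab4* (poly(A)-binding proteins), *fy-2* and *rsr1-2* (cleavage and polyadenylation), with Col-0 (2). All of these were 14 days old and grown on MS plates, and *upf1-5* and *fy-2* are partial loss-of-function alleles. The third set held *cstf64-2*, a mutant of the cleavage stimulation factor CSTF64, and Col-0 (3), both 21 days old and grown in soil. Homozygous *cstf64-2* plants were picked by their phenotype. The Col-0 (3) plants were grown beside them, and their libraries had been deposited with an earlier study. Whether the libraries of both groups were prepared and sequenced together was not stated. Any such difference cannot be told apart from genotype in that set.

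ZED1 and its relatives are pseudokinases: they have a kinase fold but lack residues that active kinases need. In Arabidopsis they bind the NLR immune receptor ZAR1 and act as adaptors, each linking ZAR1 to other bacterial effectors. ZED1 was found through recognition of the *Pseudomonas syringae* effector HopZ1a, and RKS1 through resistance to *Xanthomonas campestris*, where it recruits the modified kinase PBL2 to ZAR1. Small interfering RNAs from such protein-coding genes are usually made when their transcripts become double-stranded, either by an RNA-dependent RNA polymerase or by pairing of transcripts from opposite strands. The study also describes small RNAs of the coding strand alone, proposed to be by-products of mRNA degradation. The counts used here do not tell these kinds apart.

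The arrangement of the genes decided which of them could receive reads. On the TAIR10.1 assembly, AT3G57710 occupied the minus strand of chromosome 3 from 21384676 to 21387399 and AT3G57720 the plus strand from 21387570 to 21391638. Both were single-exon genes that pointed away from each other, and both had long annotated 3′ parts beyond the coding region, of 1557 bases in AT3G57710 and 2793 bases in AT3G57720. AT3G57700, on the plus strand from 21384917 to 21385939, lay wholly within the exon of AT3G57710. AT3G57730, on the minus strand from 21389854 to 21391614, lay wholly within the exon of AT3G57720. AT3G57740 (21392501 to 21393972), *ZED1* (21393963 to 21395288), AT3G57760 (21395297 to 21397244) and AT3G57770 (21397542 to 21398923) followed head to tail on the plus strand, and AT3G57640 lay apart from them on the minus strand from 21344708 to 21346235.

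**Figure D1:**
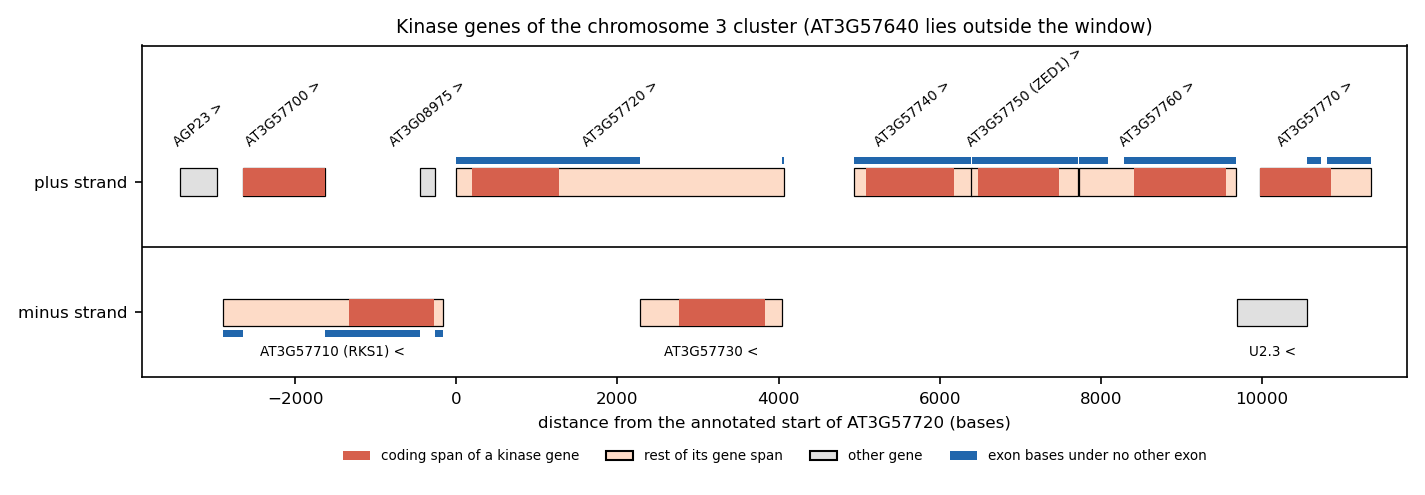
Map of the chromosome 3 kinase genes, with the distance from the annotated start of AT3G57720 in bases on the x axis and the strand on the y axis; blue lines mark exon bases that no other exon covers. AT3G57700 and AT3G57730 have no blue line, while AT3G57710 has 1518 and AT3G57720 has 2308 such bases.

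AT3G57700 and AT3G57730 had 0 reads in all 39 libraries. The same was true of every one of the 334 protein-coding genes whose exons lay wholly under exons of the opposite strand, in each of the 3 sets, whereas 90.9% (first set), 92.2% (second set) and 91.0% (set of *cstf64-2*) of 19909 protein-coding genes under no other exon had at least 1 read. Reads on shared exon bases were thus given to neither gene, and strand was not used. The zeros of AT3G57700 and AT3G57730 therefore say nothing of small RNA from these genes. For the same reason, AT3G57710 was counted on 1518 of its 2724 exon bases (55.7%) and AT3G57720 on 2308 of 4069 (56.7%), which leaves out the stretches in which transcripts of both strands could pair. AT3G57770 was counted on 721 of 1312 bases because the U2 snRNA gene *U2.3* covers the rest.

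The gap between the starts of AT3G57710 and AT3G57720 is shown because these 2 genes carried nearly all reads of the family and share it as their upstream region. It measured 170 bases with 38.2% G and C, written on the plus strand toward AT3G57720, and the capitals mark the only copy of the W-box core TTGAC, which WRKY factors bind in plant defence genes, read here on the minus strand as GTCAA, 107 bases before the AT3G57720 start:
chr3:21387400-21387569: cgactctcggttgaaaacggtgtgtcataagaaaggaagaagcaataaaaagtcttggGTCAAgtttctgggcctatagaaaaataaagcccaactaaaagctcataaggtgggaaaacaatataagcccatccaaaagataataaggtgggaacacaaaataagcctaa
TTGAC was searched on both strands and occurred in 34.0% of the 27443 windows of 170 bases before gene starts. TATAAA, in 37.0% of those windows, and CCAAT, in 35.0%, had 0 copies here.

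AT3G57720 and AT3G57730 were similar genes that face each other. Their coding parts matched at 80.0% of 1067 aligned bases, and AT3G57720 matched AT3G57710 at 81.1% and AT3G57710 matched AT3G57730 at 79.4%. AT3G57700 and AT3G57770 matched at 78.7%, and the remaining pairs of the 9 genes at 60.4% to 66.9%. The annotated AT3G57720 transcript therefore holds its own coding region and, further downstream, the reverse complement of a coding region of high similarity. The longest identical stretches of these coding regions, of 44 and 29 bases, are printed in capitals with 10 bases of flank on either side, since a small RNA from within them matches both genes. Each gene is written on its own strand:
AT3G57720, 44 bases, chr3:21388023-21388086, plus strand: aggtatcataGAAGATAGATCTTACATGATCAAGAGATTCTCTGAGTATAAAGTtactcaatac
AT3G57730, 44 bases, chr3:21391084-21391147, minus strand: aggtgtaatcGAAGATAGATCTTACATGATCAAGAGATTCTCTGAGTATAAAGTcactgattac
AT3G57720, 29 bases, chr3:21388119-21388167, plus strand: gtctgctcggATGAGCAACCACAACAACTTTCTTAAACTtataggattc
AT3G57730, 29 bases, chr3:21391003-21391051, minus strand: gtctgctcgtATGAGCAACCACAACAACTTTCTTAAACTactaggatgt
Such stretches were short. Of the 21-base words in the counted parts, 97.7% of 1458 in AT3G57710 and 96.8% of 2265 in AT3G57720 occurred at 1 place in the genome, and 28 words of AT3G57710 and 65 of AT3G57720 were also found in another of the 9 genes. Since reads at up to 10 places were kept in the first and second sets, some reads of one gene could come from another. Their share was not measured, because the counts hold no read positions and the words are not weighted by reads.

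The kinase family gave few small RNA reads apart from AT3G57710 and AT3G57720. Those 2 genes held 4813 of the 4974 reads of the 9 genes over all libraries (96.8%), 1209 in AT3G57710 and 3604 in AT3G57720, and had reads in each of the 39 libraries. The library totals behind these counts were 6437260 to 7968503 gene counts in the first set, 7767365 to 9151932 in the second and 2015212 to 2323991 in the third. *ZED1* had 57 reads in all, with at most 5 in a library and 0 in 10 libraries. AT3G57770 had 32, AT3G57740 28, AT3G57760 27 and AT3G57640 17 reads in all, with at most 4 in a library. None of these 5 genes passed the filter on low counts in any comparison, so no difference in them was detectable at this depth.

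**Figure D2:**
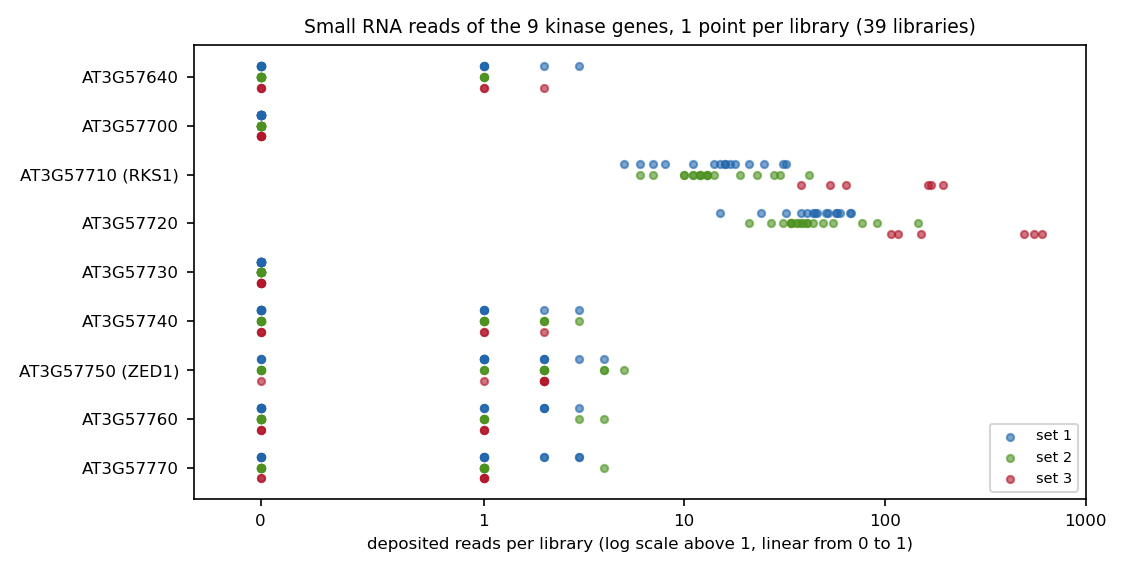
Deposited small RNA reads per library (x axis, log scale above 1) for the 9 kinase genes (y axis), 1 point for each of 39 libraries, coloured by set. AT3G57710 and AT3G57720 lie far to the right of the other genes, AT3G57700 and AT3G57730 are at 0 throughout, and the remaining genes reach at most 5 reads.

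In *cstf64-2*, AT3G57720 had 555, 609 and 492 reads, against 152, 116 and 107 in Col-0 (3). Every mutant library was above every Col-0 library, and the fitted log2 fold change was 1.91 (SE 0.12). *RKS1* (AT3G57710) had 169, 163 and 194 reads in *cstf64-2*, against 38, 64 and 53 in Col-0 (3), and its log2 fold change was 1.53 (SE 0.18). Here too the groups did not overlap. The share of all genes without overlap was not computed and this contrast chose the genes, so nothing is read from the separation. Both genes passed the call rule used for all genes (by edgeR's quasi-likelihood test, an adjusted p under 0.05 together with a log2 fold change beyond 1 in either direction), as did 16.9% of the 9207 genes tested, and nothing is read from this because the contrast chose them. In whole plants, more cells that make these small RNAs and more small RNA per cell cannot be told apart.

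In *rsr1-2*, a mutant of a protein related to CSTF64, AT3G57720 had 91, 146 and 77 reads, against 39, 38 and 44 in Col-0 (2). The highest *rsr1-2* library was replicate 2, and all 3 lay above Col-0 (2). The log2 fold change of AT3G57720 was 0.95 (SE 0.21), just under the threshold of 1. *RKS1* had 28, 42 and 30 reads in *rsr1-2*, against 10, 6 and 12 in Col-0 (2), again without overlap, and a fitted log2 change of 1.41 (SE 0.34), just over it. The call rule placed *RKS1* inside and AT3G57720 outside, in a comparison in which 2.44% of 9613 genes were called. Again nothing is read from this, or from the lack of overlap, because the contrast chose the genes. The share of all genes without overlap was not computed. Without *rsr1-2* replicate 2, *RKS1* had 1.31 and AT3G57720 0.74. The deposited files of these libraries carry the name rsr2, while their labels give *rsr1-2*, which is followed here. Relative to Col-0 (1), AT3G57720 stood at 1.63 and *RKS1* at 1.74 in *rsr1-2*.

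The low members had too few reads to be set apart in these sets. *ZED1* had 2, 2 and 0 reads in *cstf64-2*, against 2, 2 and 1 in Col-0 (3), and 0, 2 and 0 in *rsr1-2*, against 2, 1 and 0 in Col-0 (2). AT3G57760 had 1 read in each *cstf64-2* library and 0 in each Col-0 (3) library, which is within counting error, and 0, 1 and 0 in *rsr1-2*, against 0, 0 and 1 in Col-0 (2). AT3G57770 had 1, 1 and 1 reads in *cstf64-2*, against 0, 0 and 1 in Col-0 (3), and 1, 0 and 1 in *rsr1-2*, against 1, 1 and 1 in Col-0 (2). All of these values are too low to order the groups. AT3G57740 had 1, 2 and 0 reads in *cstf64-2*, against 1, 0 and 0 in Col-0 (3), and 0, 2 and 0 in *rsr1-2*, against 0, 0 and 3 in Col-0 (2). AT3G57640 had 1, 0 and 0 reads in *cstf64-2*, against 0, 1 and 2 in Col-0 (3), and 0, 0 and 1 in *rsr1-2*, against 1, 1 and 0 in Col-0 (2).

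The other mutants were not used to choose the genes, although those of the second set share Col-0 (2) with *rsr1-2*. In *upf3-1*, which lacks a core factor of nonsense-mediated decay, *RKS1* had 25, 21 and 32 reads, against 8, 7 and 6 in Col-0 (1). The fitted log2 change of *RKS1* was 1.30 (SE 0.39, adjusted p = 0.0142, edgeR). It was the 1 of 2 kinase genes tested that was called, in a comparison where 12.1% of 9492 genes were called. *RKS1* passed the filter on low counts only through *upf3-1*, which favours a rise, so this p is not support for one. The call rested on single libraries: without Col-0 (1) replicate 3 the adjusted p was 0.0519, without *upf3-1* replicate 3 it was 0.0798, and DESeq2 gave 1.38 with an adjusted p of 0.0784. Against Col-0 (2) the log2 fold change was 0.99. AT3G57720 had 68, 51 and 67 reads in *upf3-1*, against 24, 32 and 15 in Col-0 (1), with a fitted log2 change of 0.80 (SE 0.27, adjusted p = 0.0262, edgeR), past the p threshold and under that on size. The adjusted p reached 0.158 without Col-0 (1) replicate 3, and DESeq2 gave 0.0905. Without Col-0 (1) replicate 2, the library highest in AT3G57720, it was 1.09 (adjusted p = 0.00988, edgeR) and was called.

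In *upf1-5*, *RKS1* had 17, 18 and 31 reads, against 8, 7 and 6 in Col-0 (1), with a fitted log2 change of 1.25 (SE 0.42, adjusted p = 0.0532, edgeR). AT3G57720 had 45, 57 and 60 reads in *upf1-5*, against 24, 32 and 15 in Col-0 (1), with 0.79 (SE 0.28, adjusted p = 0.0664, edgeR). Neither was called, against 5.29% of 9232 genes. The raw counts of the groups did not overlap in either gene, and both unadjusted p-values were under 0.05 (edgeR). How many of all genes do the same was not computed, so nothing is read from this. With DESeq2's size factors or with all groups of the set in 1 fit, *RKS1* passed in *upf1-5* at adjusted p = 0.0496 and 0.0483 (edgeR). In these fits and the main one, *RKS1* passed the filter on low counts only through groups in which it is higher. That favours a rise, so these p-values are not support for one. Without Col-0 (1) replicate 2, AT3G57720 passed in *upf1-5*, at 1.08 (adjusted p = 0.0396, edgeR). Without *upf1-5* replicate 3, *RKS1* stood at 0.87 (adjusted p = 0.310, edgeR). Fitted directly against each other, *upf1-5* and *upf3-1* differed by -0.03 (SE 0.34) in *RKS1* and 0.0034 (SE 0.22) in AT3G57720 on the log2 scale, with adjusted p of 0.982 and 0.998 (edgeR).

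In *ncb-4*, *RKS1* had 16, 16 and 14 reads, against 8, 7 and 6 in Col-0 (1), with a fitted log2 change of 0.61 (SE 0.41, adjusted p = 0.309, edgeR). AT3G57720 had 46, 41 and 52 reads in *ncb-4*, against 24, 32 and 15 in Col-0 (1), and 0.46 (SE 0.28, adjusted p = 0.250). Neither was called, against 10.6% of 9432 genes, and *RKS1* passed the filter on low counts there only through *ncb-4*. In *lsm1a lsm1b*, *RKS1* was too low to be tested at 5, 15 and 11 reads, against 8, 7 and 6 in Col-0 (1). AT3G57720 had 44, 38 and 58 reads there, against 24, 32 and 15, yet a fitted log2 change of only 0.30 (SE 0.29, adjusted p = 0.518, edgeR), against 7.69% of 9558 genes called.

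Fold changes in the first set depend on the scaling between libraries. TMM factors were 0.685 to 0.700 in Col-0 (1) and 0.946 to 1.33 in the mutants, a difference between groups whose part in the results was not tested beyond the scaling given here. Scaled instead by all lines of each file, the median of all genes moved by 0.45 to 0.72 in the 4 comparisons of this set, by 0.25 to 0.45 in those of the second and by 0.21 in the third. Both kinase genes then passed in *ncb-4*, *upf1-5* and *upf3-1*, and AT3G57720 in *lsm1a lsm1b*. *RKS1* again passed the filter on low counts only through the mutants, so its calls are not support for a rise. Of all genes, this scaling called 2209 in *ncb-4* (1002 with TMM), 1239 in *upf1-5* (488), 2656 in *upf3-1* (1153) and 2643 in *lsm1a lsm1b* (735). Relative to the median of all genes with this scaling, *RKS1* stood at 1.32 in *upf3-1*, 1.27 in *upf1-5* and 0.62 in *ncb-4*, and AT3G57720 at 0.82, 0.83 and 0.48, with 0.34 in *lsm1a lsm1b*.

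The remaining mutants of the second set had lower or similar values of AT3G57720. In *ahg2-1* it had 31, 21 and 34 reads, against 39, 38 and 44 in Col-0 (2), without overlap, and a fitted log2 change of -0.72 (SE 0.24, adjusted p = 0.0379, edgeR), which passed the p threshold and not that on size, in a comparison with 8.81% of 9371 genes called. With single libraries left out its adjusted p ran between 0.0430 and 0.118, and against Col-0 (1) AT3G57720 stood at -0.06 in *ahg2-1* (adjusted p = 0.922, edgeR). *RKS1* had 11, 11 and 13 reads in *ahg2-1*, against 10, 6 and 12 in Col-0 (2), and 0.11 (SE 0.41, adjusted p = 0.895). In *ccr4a*, AT3G57720 had -0.54 (SE 0.24, adjusted p = 0.455) and *RKS1* 0.35 (SE 0.40, adjusted p = 0.869), with 0.616% of 9747 genes called. In *pab2 pab4*, AT3G57720 had -0.47 (SE 0.24, adjusted p = 0.158) and *RKS1* -0.25 (SE 0.43, adjusted p = 0.697), with 6.18% of 9742 genes called. In *fy-2*, which carries a weak allele of another cleavage and polyadenylation factor, AT3G57720 had -0.19 (SE 0.22, adjusted p = 0.673) and *RKS1* 0.42 (SE 0.41, adjusted p = 0.609), with 1.21% of 9534 genes called. In counts the groups overlapped for both genes in *ccr4a*, *pab2 pab4* and *fy-2*. Scaled to library size, AT3G57720 had 3.50, 3.09 and 5.05 CPM in *ccr4a*, against 6.08, 5.47 and 5.20 CPM in Col-0 (2), without overlap and with an unadjusted p of 0.0341 (edgeR), and the other values still overlapped.

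Between the wild types of the first and second sets, AT3G57720 showed a value of similar size. It had 39, 38 and 44 reads in Col-0 (2), against 24, 32 and 15 in Col-0 (1), a fitted log2 change of 0.70 (SE 0.29, adjusted p = 0.153, edgeR), with 2.95% of 8840 genes called. The size is close to that of AT3G57720 in *upf1-5* and *upf3-1* against Col-0 (1), and against Col-0 (2) these mutants stood at 0.11 and 0.13. *RKS1* was too low to be tested between the wild types. In all, 1 of the 16 fits of these 2 genes outside the choosing contrasts was called, 3 had an adjusted p under 0.05 and 7 an unadjusted p under 0.05 (edgeR), and DESeq2 called 0. The call was *RKS1* in *upf3-1*, which passed the filter on low counts through that mutant, so it is not support for a rise. The shares of all genes with an unadjusted p under 0.05, or without overlap between groups, were not computed, so nothing is read from either.

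**Figure D3:**
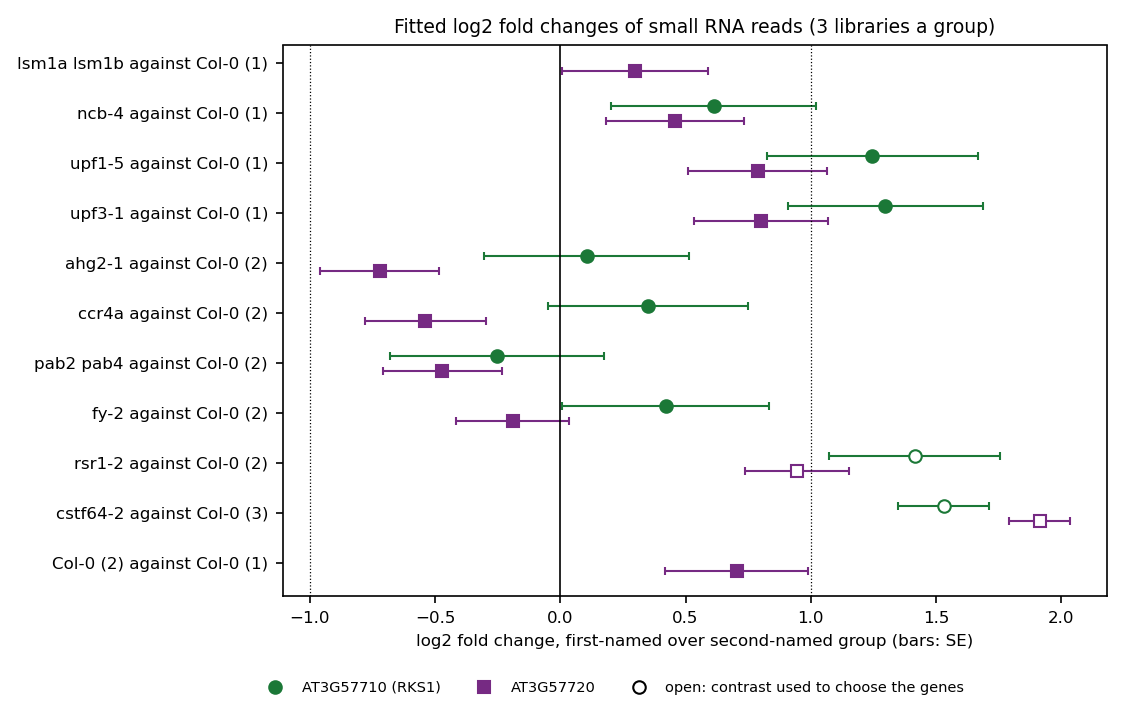
Fitted log2 fold changes (x axis, first-named over second-named group, bars are SE, 3 libraries a group) of *RKS1* and AT3G57720 in the 11 comparisons (y axis), with dotted lines at the call threshold of 1. The open symbols, for the contrasts that chose the genes, and *RKS1* in *upf1-5* and *upf3-1* lie farthest to the right, and AT3G57720 lies below 0 in *ahg2-1*, *ccr4a*, *pab2 pab4* and *fy-2*.

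Mutants of the first set were also compared directly, in 1 fit of all its groups. *RKS1*, which was too low in *lsm1a lsm1b* and Col-0 (1) to be tested between them, passed the filter of this fit through groups in which it is higher, so its values there are not support for a difference. It was lower in *lsm1a lsm1b* than in *upf1-5* by -1.32 (SE 0.39, adjusted p = 0.0194, edgeR, 5.70% of 11813 genes called) and than in *upf3-1* by -1.36 (SE 0.38, adjusted p = 0.0134, 6.37% called). These were the 2 calls among 24 fits, 12 pairs of mutants without *rsr1-2* for each of the 2 genes, and AT3G57720 gave none. In counts, *RKS1* had 5, 15 and 11 reads in *lsm1a lsm1b*, against 17, 18 and 31 in *upf1-5*, and 5, 15 and 11 against 25, 21 and 32 in *upf3-1*.

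Levels per counted kb, in TMM-scaled CPM (counts relative to library size), gave the order of the groups. For *RKS1* in the first set, *upf3-1* (2.08 ± 0.40, SD, n = 3) and *upf1-5* (2.04 ± 0.82) stood above *ncb-4* (1.33 ± 0.04), followed by Col-0 (1) (0.854 ± 0.104) and *lsm1a lsm1b* (0.823 ± 0.467). Only the step between *ncb-4* and Col-0 (1) exceeded the larger SD of the neighbours. For AT3G57720 the order was *upf1-5* (3.28 ± 0.56), *upf3-1* (3.26 ± 0.34), *ncb-4* (2.67 ± 0.45), *lsm1a lsm1b* (2.36 ± 0.36) and Col-0 (1) (1.91 ± 0.71), with the single step over the SD between *upf3-1* and *ncb-4*. In the second set *rsr1-2* led both orders, at 2.31 ± 0.30 for *RKS1* and 4.73 ± 1.14 for AT3G57720, by more than the SD. Nothing is read from this lead, because the contrast of *rsr1-2* chose the genes. Below *rsr1-2* no neighbouring groups differed by more than their SD, in *RKS1* between *fy-2* (1.14 ± 0.42) and *pab2 pab4* (0.722 ± 0.207), and in AT3G57720 between Col-0 (2) (2.42 ± 0.20) and *ahg2-1* (1.47 ± 0.17). Scaled by all lines, these orders changed in part. *lsm1a lsm1b* then stood above Col-0 (1) for *RKS1*, at 0.360 ± 0.166 and 0.238 ± 0.031, and the step over the SD lay between *ncb-4* and *lsm1a lsm1b*. For AT3G57720 it lay between *lsm1a lsm1b* (1.08 ± 0.26) and Col-0 (1) (0.529 ± 0.192). In the second set *rsr1-2* still led, again only a description, *fy-2* stood above Col-0 (2) for AT3G57720, and Col-0 (2) was lowest for *RKS1*. In the third set, with TMM, *RKS1* had 48.5 ± 6.37 in *cstf64-2* and 16.8 ± 4.47 in Col-0 (3), and AT3G57720 had 100.1 ± 9.25 in *cstf64-2* and 26.5 ± 4.25 in Col-0 (3). Levels are not compared between the third set and the others, because its reads were counted differently: no genes of 10 or more mean counts shared identical counts in all its libraries, against 171 and 162 in the first and second sets, where copies with the same sequence received the same reads.

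**Figure D4:**
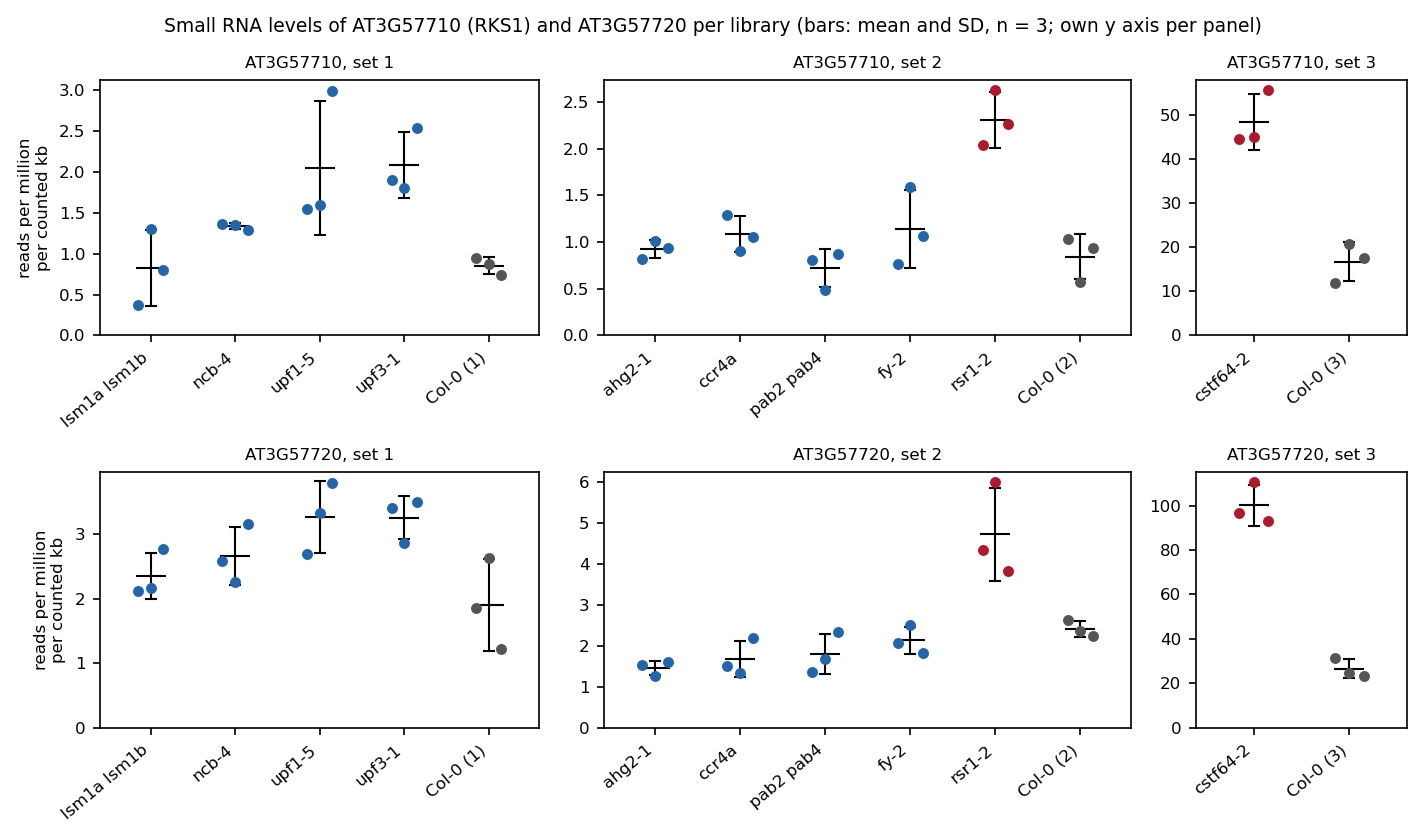
Level of AT3G57710 (*RKS1*, top) and AT3G57720 (bottom) in every library, in TMM-scaled CPM (reads relative to library size) per counted kb (y axis, own scale in each panel), for the groups of the 3 sets (x axis); black bars are mean and SD of 3 libraries. The *rsr1-2* and *cstf64-2* libraries (red), whose contrasts chose the genes, lie above all Col-0 libraries (grey) of their set in both genes.

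AT3G57720 was above *RKS1* per counted kb in all 39 libraries. The ratio of the 2 genes needs no scaling between libraries, and it had a median of 1.85 and ranged between 1.18 and 5.79. It was 2.10 ± 0.40 in *cstf64-2* and 1.72 ± 0.79 in Col-0 (3), 2.04 ± 0.31 in *rsr1-2* and 3.05 ± 0.97 in Col-0 (2), and 1.59 ± 0.21 in *upf3-1* and 2.21 ± 0.71 in Col-0 (1) (SD, n = 3 each). These differences are of the order of the SDs. Over the 39 libraries, each set relative to its own Col-0, the log2 levels of the 2 genes had a Pearson r of 0.70, and of 0.64 over the 33 libraries of the first and second sets. The libraries share their set, scaling and mutants, and the choosing contrasts are among them.

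By the same measure, 4559 genes with at least 20 mean counts in each set were ranked by likeness to AT3G57720 over all 39 libraries. The closest were the transcribed pseudogenes AT3G06433 (r = 0.78) and AT3G06437 (0.77), *PyrD* (AT4G20960, 0.77), which encodes a pyrimidine deaminase, and *SAP130b* (AT3G55220, 0.75) and *SAP130a* (AT3G55200, 0.75), neighbouring near-copies for a spliceosome-associated protein whose reads may be shared. Without the third set these values were 0.59 to 0.60 over 33 libraries, so they are lower without *cstf64-2* and Col-0 (3). *RKS1* was too low to enter this ranking.

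Related pseudokinase genes elsewhere in the genome also gave few reads, though AT1G65190 (278 over all libraries) and AT1G65250 (129) had more than the 17 to 57 of the 5 low cluster genes, and AT1G67470 had 39. AT1G65190 had 1 to 16 reads in a library, AT1G65250 0 to 8 and AT1G67470 0 to 4. Only AT1G65190 was tested, in *ncb-4*, where it had 16, 15 and 11 reads, against 7, 8 and 8 in Col-0 (1), and a fitted log2 change of 0.35 (SE 0.41, adjusted p = 0.593, edgeR). The 6 listed genes of the ZAR1 pathway had 124 to 563 reads each, more than the low cluster genes. *ZAR1* (AT3G50950), the NLR receptor these pseudokinases bind, had 5 to 26 reads and was tested in all 11 comparisons without a call and with 0 unadjusted p-values under 0.05 (edgeR), with 0.55 (SE 0.52, adjusted p = 0.445) in *cstf64-2*. *PBL1* and *PBS1*, receptor-like cytoplasmic kinases of immune signalling, were tested in 2 and 1 comparisons without a call. *PBL1* (AT3G55450) came closest, with 10, 1 and 4 reads in *lsm1a lsm1b*, against 13, 7 and 11 in Col-0 (1), and -1.70 on the log2 scale (SE 0.58, unadjusted p = 0.00902, adjusted p = 0.0514, edgeR). *PBL2* and *BIK1* were not tested. *RIPK* (AT2G05940), another such kinase, had 22, 17 and 21 reads in *cstf64-2*, against 0, 5 and 7 in Col-0 (3). It had a fitted log2 change of 2.06 (SE 0.58, adjusted p = 0.0171, edgeR), the 1 of 2 listed genes tested there that was called, in a comparison where 16.9% of all genes were. *RIPK* passed the filter on low counts only through *cstf64-2*, which favours a rise, so this p is not support for one. The list's median in *cstf64-2*, 1.30, came from *ZAR1* and *RIPK* alone. The filter through which *RIPK* entered favours a high value, so nothing is read from this median. In *rsr1-2*, *ZAR1* alone had -0.49. The medians of all genes were -0.00098 in *cstf64-2* and -0.07 in *rsr1-2*.

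Of 21 other annotated genes between AT3G57600 and AT3G57800, 18 had a read and 6 were tested in some comparison. None was called in *rsr1-2* (5 tested) or *cstf64-2* (2 tested), where unadjusted p-values are under 0.05 for *ADSS* (AT3G57610, -0.85, SE 0.38) in *rsr1-2* and *U2.3* (0.59, SE 0.22) in *cstf64-2*. The calls at the locus were AT3G57800 in *ahg2-1* (8.81% of all genes called) and 2 U2 snRNA genes in *ncb-4* (10.6%). AT3G57800 had 8, 7 and 6 reads in *ahg2-1*, against 19, 27 and 21 in Col-0 (2), and fell by 1.88 on the log2 scale (SE 0.39, adjusted p = 0.00188, edgeR). It passed the filter on low counts there through Col-0 (2), where it is higher, which favours a fall. *U2.2* had 121, 146 and 82 reads in *ncb-4*, against 193, 138 and 195 in Col-0 (1), and fell by 1.11 (SE 0.17, adjusted p = 0.000102), and *U2.3* fell by 1.07 (SE 0.17, adjusted p = 0.000138). Under the size threshold but past that on p (edgeR), *U2.2* and *U2.3* had -0.95 and -0.97 in *ahg2-1* (adjusted p = 0.000701 and 0.000460), -0.75 and -0.77 in *upf3-1* (0.00140 and 0.00109) and -0.63 and -0.64 in *pab2 pab4* (0.00820 and 0.00672), and *U2.3* had -0.60 in *fy-2* (0.0474). Both encode the U2 RNA of the spliceosome and gave nearly the same counts, at a ratio of 0.996 to 1.12 over 33 libraries, so they are not independent. The U2 falls are with TMM, and in *ncb-4* the counts of both genes overlapped those of Col-0 (1). Scaled by all lines, the median of all genes moved up by 0.58 in *ncb-4*, 0.62 in *upf3-1*, 0.45 in *pab2 pab4* and 0.26 in *ahg2-1* and *fy-2*. The part of the scaling in the U2 falls was not tested.

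Small RNA reads at the mutated genes themselves bear on the labels only in part, as they do not measure the mRNA. *PAB2* had 4, 9 and 5 reads in *pab2 pab4*, against 86, 87 and 96 in Col-0 (2), and *UPF3* had 1, 0 and 3 in *upf3-1*, against 4, 4 and 5 in Col-0 (1). *COILIN*, *FY* and *CSTF64* lay above wild type in their mutants, with 5, 6 and 7 reads for *CSTF64* in *cstf64-2*, against 4, 3 and 2 in Col-0 (3). The other 7 of the 12 genes overlapped, *RSR1* (AT1G73840) among them, with 4, 8 and 6 reads in *rsr1-2*, against 0, 8 and 3 in Col-0 (2). All of these values are raw counts, not scaled to library size, and the share of all genes without overlap was not computed.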

How the data were processed

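The deposited files hold raw counts of small RNA reads per gene, 1 file a library. According to the study's methods and the labels, the authors trimmed reads with cutadapt 1.9 and sickle, mapped them to TAIR10 with Bowtie 1.0.0 without mismatches and at up to 10 places, and counted them over Araport11 exons with HTSeq 0.6.0. The methods name counting both with and without regard to strand, and which of them made these files was not given in the sources used here. Counting without strand was read from the 334 genes wholly under opposite-strand exons, none of which had a read. The third set was counted in another way, so levels were compared within sets. Lines of the counter that name no gene were left out of library sizes, and reads it called ambiguous made up 4.55% to 6.62% of all lines in the first set, 5.26% to 6.17% in the second and 1.07% to 2.28% in the third.

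Mutants were set against Col-0 within each set by edgeR 4.0.16 (R 4.3.3; filterByExpr, TMM, quasi-likelihood F-test), with p-values adjusted by Benjamini-Hochberg across the genes that passed the filter. The call rule asked for an adjusted p under 0.05 together with a log2 fold change beyond 1 in either direction. SE is the fold change divided by the square root of F. Levels are TMM-scaled CPM, relative to the gene counts of a library, per kb of exon under no other exon. Alternatives were other scalings, filters, DESeq2 1.42.0, a replicate block, other samples in the fit, the other Col-0 and each library left out. Direct comparisons between mutants were put under other scalings after seeing the data. Exon overlaps, identities, shared words and motifs came from the TAIR10.1 assembly and annotation of RefSeq.

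The genes and lists were chosen with earlier results of these data known. All 9 genes are named, with values per library in *cstf64-2* and *rsr1-2* and wherever one was called. The lists are 3 related kinase genes elsewhere, 6 genes of the ZAR1 pathway, neighbours between AT3G57600 and AT3G57800, and the 5 genes most like AT3G57720. Other genes are named only where mutated in a line, called, or where an unadjusted p was under 0.05. *ZAR1* and AT1G65190 are given as tested members of their lists. Replicates were separate biological samples per the labels.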

Additional observations from a re-analysis of the deposited data

Results flagged for a closer look

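*RKS1* (AT3G57710) had unlike values in mutants that share a wild type. It was lower in *lsm1a lsm1b* than in *upf1-5* by -1.32 on the log2 scale (SE 0.39, adjusted p = 0.0194, edgeR) and than in *upf3-1* by -1.36 (SE 0.38, adjusted p = 0.0134, edgeR), in direct fits of 3 libraries each. What singled them out is that the difference itself passed the test among 24 such fits. With DESeq2's size factors the values were -1.30 and -1.36, and with libraries scaled by all lines -1.09 and -1.32, all still called. The *lsm1a lsm1b* libraries had 5, 15 and 11 reads, and there the gene failed the filter on low counts against Col-0 (1). It passed in the fit of all groups through those in which it is higher, which favours such a difference, so these values are not support for one.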

How the results depend on the processing

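The counts of kinase genes called were within 1.5 times the main count in 134 of 152 alternative fits. These include the many fits in which the count stayed at 0 and those of the contrasts that chose the genes. The share therefore says little of stability where a gene was called. With libraries scaled by all lines, 2 genes were called in *upf3-1* (1 otherwise), 2 in *rsr1-2* (1), 2 in *ncb-4* (0), 2 in *upf1-5* (0) and 1 in *lsm1a lsm1b* (0). In each of these comparisons this scaling also raised the count of all genes called, given below. In *upf1-5*, DESeq2's size factors and 1 fit of all groups each gave 1, *RKS1*, which passed the filter on low counts through groups in which it is higher. In *upf3-1*, DESeq2 and Col-0 (2) each gave 0. In *rsr1-2*, no filter and Col-0 (1) each gave 2, a description only since this contrast chose the genes. With single libraries left out, the count ran between 0 and 1 in *upf1-5* (1 without Col-0 (1) replicate 2), 0 and 2 in *upf3-1* (0 without Col-0 (1) replicate 3 or *upf3-1* replicate 3, 2 without Col-0 (1) replicate 2) and 0 and 2 in *rsr1-2* (0 without *rsr1-2* replicate 2, 2 without Col-0 (2) replicate 1 or *rsr1-2* replicate 3). The direction turned for AT3G57720 against the other Col-0, to -0.21 in *ncb-4*, -0.40 in *lsm1a lsm1b*, 0.14 in *ccr4a*, 0.22 in *pab2 pab4* and 0.49 in *fy-2*, and with scaling by all lines to 0.076 in *fy-2*. It turned for *RKS1* to 0.19 in *pab2 pab4* with scaling by all lines, and ran between -0.10 and 0.25 in *ahg2-1* with single libraries left out. None of these was called with TMM, and the cause was not tested.

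In no comparison did all same-numbered libraries deviate together: in each at least 1 correlation was under 0.1, with a lowest value of -0.14. In *cstf64-2* against Col-0 (3) the correlations were 0.0028, 0.195 and 0.274, so whether some libraries pair there was not settled. With the replicate block *RKS1* in *upf3-1* stood at 1.29 (adjusted p = 0.0185, edgeR), and no count of kinase genes called changed.

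Over all genes, scaling by all lines called 2656 genes in *upf3-1* (1153 with TMM), 1239 in *upf1-5* (488), 2643 in *lsm1a lsm1b* (735), 2209 in *ncb-4* (1002), 626 in *rsr1-2* (235), 1183 in *pab2 pab4* (602), 200 in *fy-2* (115) and 99 in *ccr4a* (60). DESeq2 called 635 in *ncb-4*, 422 in *lsm1a lsm1b*, 277 in *upf1-5*, 533 in *ahg2-1* (826), 35 in *ccr4a*, 247 in *pab2 pab4*, 32 in *fy-2*, 60 in *rsr1-2* and 164 between the wild types (261). The other Col-0 gave 1755 in *ncb-4*, 1610 in *lsm1a lsm1b*, 1051 in *upf1-5*, 1787 in *upf3-1*, 326 in *ccr4a* and 281 in *fy-2*.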
